A study of Drosophila melanogaster with 16 samples.

Results

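The control larvae on the low sugar diet (LSD) are the unperturbed baseline of a study of the GATA transcription factor Grain, and their whole-body transcriptome is described here on its own. They were chosen by their labels alone, which gave 4 of the 16 RNA-seq libraries, and all 9982 genes of the deposited table were used. Per the study's methods these larvae carry the ubiquitous driver Tub-GAL4 and a TRiP control RNAi construct, so that both the driver and an RNAi transgene are present, whereas the genotype field of the labels reads wild type. Larvae were collected 24 h after egg laying, moved as early 2nd instar larvae at 48 h to fresh LSD (10% yeast) and frozen after 8 h as 20 whole larvae per library. The stage field of the labels reads 3rd instar larvae. The study calls its replicates biological, but the labels do not say that the 4 libraries came from separate cultures, so the spread between them may be partly technical. No other group of the study was used and no test was made.

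A whole larva is a mixture of tissues that differ in size and in RNA content. The body wall muscles and the midgut are bulky and devote much of their mRNA to a few products, the contractile proteins and the digestive enzymes. The fat body makes lipoproteins and, late in larval life, storage proteins. The epidermis and the tracheal tubes secrete a chitin cuticle that is rebuilt at each moult under the control of ecdysone, so that cuticle genes come on in short waves. In a whole-body library, fewer cells of a type and less RNA per cell cannot be told apart.

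Values are given in 2 ways. A level is the authors' normalized CPM. A share is the percentage of a library's reads in the table that fell in a gene or class, and it does not depend on how the library was scaled. Reads recovered from the values numbered 24038848 to 26477434 per library. The widest 95% Wilson interval of a class share in a library reached only 0.0180 percentage points to either side, which covers counting error only, so the SD between libraries (n = 4 throughout) is the larger error. The closest libraries, replicates 2 and 4, still differed by 29.8 times the counting variance over genes, so no library was a duplicate of another.

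Nearly every gene of the table was detected in every library. A level above 1 was reached in all 4 libraries by 9560 genes and in none by 116, and 5 genes had no read in at least 1 library, where 3 reads would have given a level of 0.119 to 0.133. Genes entered the table if they passed the authors' filter in any group of the study, so the 116 may have passed through another group. Per the study's methods that filter also used a CPM cutoff of 1, so the count of 9560 was largely set by the filter. The middle of the distribution was low, with a median mean level of 24.1 per gene, and 176 genes with a mean level above 1000 held 43.1% of the reads. The single highest gene held 6.59 ± 0.974% (SD), the 10 highest 15.2 ± 0.908%, the 100 highest 34.7% (33.6% to 36.1%) and the 1000 highest 72.0 ± 0.851%. From 243 to 282 genes made up 50% of the reads of a library, and 3114 to 3295 made up 90%.

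The leading transcript was mt:lrRNA, the large ribosomal RNA of the mitochondrion (mitochondrial genome, 12735 to 14058, minus strand, BDGP6.54). Its level was 88128, 75555, 63096 and 59362 in replicates 1 to 4, with shares of 7.79%, 6.95%, 6.02% and 5.61%. It was highest in replicate 1 and lowest in replicate 4. The share of the 10 highest genes was 16.3%, 15.5%, 14.8% and 14.2%. This sum includes mt:lrRNA itself, so its library order is not a separate result. Library preparation used an mRNA kit, so these are shares of the RNA that the kit captured. Below mt:lrRNA came the larval muscle actin Act57B at 18528, 17418, 17267 and 17475, and the cytochrome oxidase subunit gene mt:CoI at 14452, 14609, 14038 and 13529. The SDs of these 2 genes were 578 and 483, and replicate 1 had the highest level of Act57B but not its highest share. The translation elongation factor Ef1alpha48D (eEF1alpha1 in the reference) followed at 12131, 12182, 11577 and 11988.

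**Figure D1:**
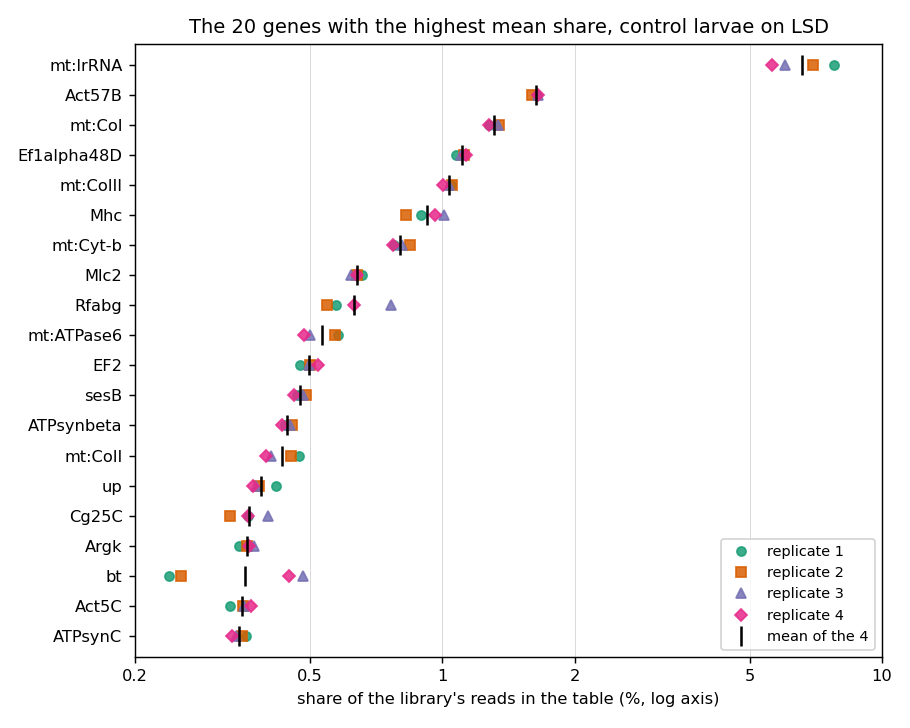
Share of each library's reads taken by the 20 genes with the highest mean share (log axis), with a symbol for each of the 4 libraries and a bar at their mean. The first gene, mt:lrRNA, holds 5.61% to 7.79%, and the symbols lie apart for mt:lrRNA and bt but nearly coincide for Act57B.

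The rest of the 20 highest genes included genes of muscle, the mitochondrion, translation, the fat body lipoprotein, collagen and the cytoskeleton. They were mt:CoIII, Mhc, mt:Cyt-b, Mlc2, Rfabg, mt:ATPase6, EF2, sesB, ATPsynbeta, mt:CoII, up, Cg25C, Argk, bt, Act5C and ATPsynC, with mean levels from 11178 for mt:CoIII down to 3725 for ATPsynC. Argk, the arginine kinase that buffers ATP in insect muscle, was at 3895, 3906, 3904 and 3838, a coefficient of variation of 0.825% by level but 3.27% by share. By share, Act57B had the smallest coefficient of variation of the 20, at 1.36%. Also by share, mt:ATPase6 had the library order of mt:lrRNA, whereas mt:CoI was highest in replicate 2 and Mhc and Rfabg in replicate 3. Reads grow with transcript length, so levels of different genes are best ranked per kilobase of exon. Per kilobase, mt:lrRNA stayed first at 54030 and was followed by mt:CoIII at 14168, Act57B at 10251, mt:CoI at 9217, mt:ATPase6 at 8558, RpL41 at 7768, mt:Cyt-b at 7604 and mt:CoII at 6835. Next in level per kilobase were Nplp2, Ef1alpha48D, RpS27A, RpL23, Jon65Aiv, Mlc2 and RpLP2, from 5278 down to 3013. Length correction thus brought short ribosomal protein genes and a short gut protease into the leading group and moved the long muscle genes down, with Mhc falling from place 6 by reads to place 127 and bt from place 18 to place 777.

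Mitochondria and translation took the largest part of the reads. The 12 genes of the mitochondrial genome that had a row in the table held 12.6%, 11.9%, 10.8% and 10.1% in replicates 1 to 4. Most of this, 6.59 ± 0.974%, was ribosomal RNA, and nearly all of that was mt:lrRNA, since mt:srRNA was at 25.8, 17.7, 16.3 and 10.6. The 10 protein genes with rows held 4.77 ± 0.187%. Their levels ranged widely, from 14157 for mt:CoI to 13.5 for mt:ND2, a subunit gene of complex I, and the other complex I genes in the table lay between 273 for mt:ND3 and 2683 for mt:ND5. Per kilobase, mt:CoIII at 14168 stood above mt:CoI at 9217 and far above mt:ND5 at 1563. The proteins that nuclear genes add to the same respiratory chain (70 genes) held 2.89 ± 0.094% of reads, with ATPsynbeta at 4958, 4945, 4724 and 4571, ATPsynC at 4039, 3800, 3548 and 3514, and blw, the alpha subunit of the ATP synthase, at 2958, 2842, 2799 and 2864. The class was thus led by subunits of the ATP synthase. The ADP/ATP carrier sesB, which exchanges the product with the cytosol, was at 5294, 5328, 5050 and 4860, and the outer membrane channel porin at 2151, 2045, 2011 and 1984.

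Cytosolic ribosomal proteins (86 genes) held 10.8%, 10.7%, 9.59% and 9.97% of reads, and 17.5 ± 0.642% after correction for length, the largest named class on that scale. The members with most reads were RpS3A at 2967, RpL41 at 2486, sta at 2480, RpLP0 at 2315, RpL5 at 2263 and RpLP1 at 2227. Levels within the class were not equal. The median member had a mean level of 1243, while RpS10a, RpL37b and RpS5b, each with a close paralog in the class, had mean levels of 1.41, 2.75 and 7.47, and reads shared between such copies may have been divided or lost in the counting. None of the 82 members with a mean level of at least 10 had a log2 SD above 0.5, against 3.56% of all 7140 such genes. Their median log2 SD was 0.136, against 0.120 for all. Of the 82, 79 (96.3%) were highest in replicate 1, against 34.8% of all genes and 65.8% of those up to 1 kb. Lowest in replicate 3 were 76 (92.7%), against 29.7% of all genes and 46.1% of those up to 1 kb. The part of length in these counts was not tested. Translation factors (34 genes) held 2.96 ± 0.065%, led by Ef1alpha48D, the translocation factor EF2 at 5382 ± 123 and the poly(A) binding protein pAbp at 2486 ± 119. The mitochondrial ribosomal proteins (74 genes) held 0.388 ± 0.021% and the 20 aminoacyl-tRNA synthetases, which charge tRNAs, 0.280 ± 0.0067%.

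Muscle was the tissue with the largest marker signal. The 27 genes of the muscle class held 6.81%, 6.57%, 7.23% and 7.08% of reads, and all 20 genes of the muscle marker list were above a level of 100. Myosin heavy chain Mhc was at 10124, 8992, 10549 and 10200, the light chain Mlc2 at 7432, 6958, 6485 and 6758, and the troponin T gene up at 4734, 4155, 3954 and 3928. The second light chain Mlc1 was at 3399, 3247, 3117 and 3078 and the sarcoplasmic calcium pump SERCA at 2981, 2851, 2885 and 3017. The thin filament proteins tropomyosin (Tm1 and Tm2) and troponin I (wupA) had mean levels of 2917, 2378 and 2551, and the thick filament proteins myofilin (Mf) and paramyosin (Prm) of 2324 and 2029. Of the muscle actins, Act57B at a mean of 10251 per kilobase exceeded Act87E at 222 per kilobase. The actins share much sequence, so reads could be divided between them.

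**Figure D2:**
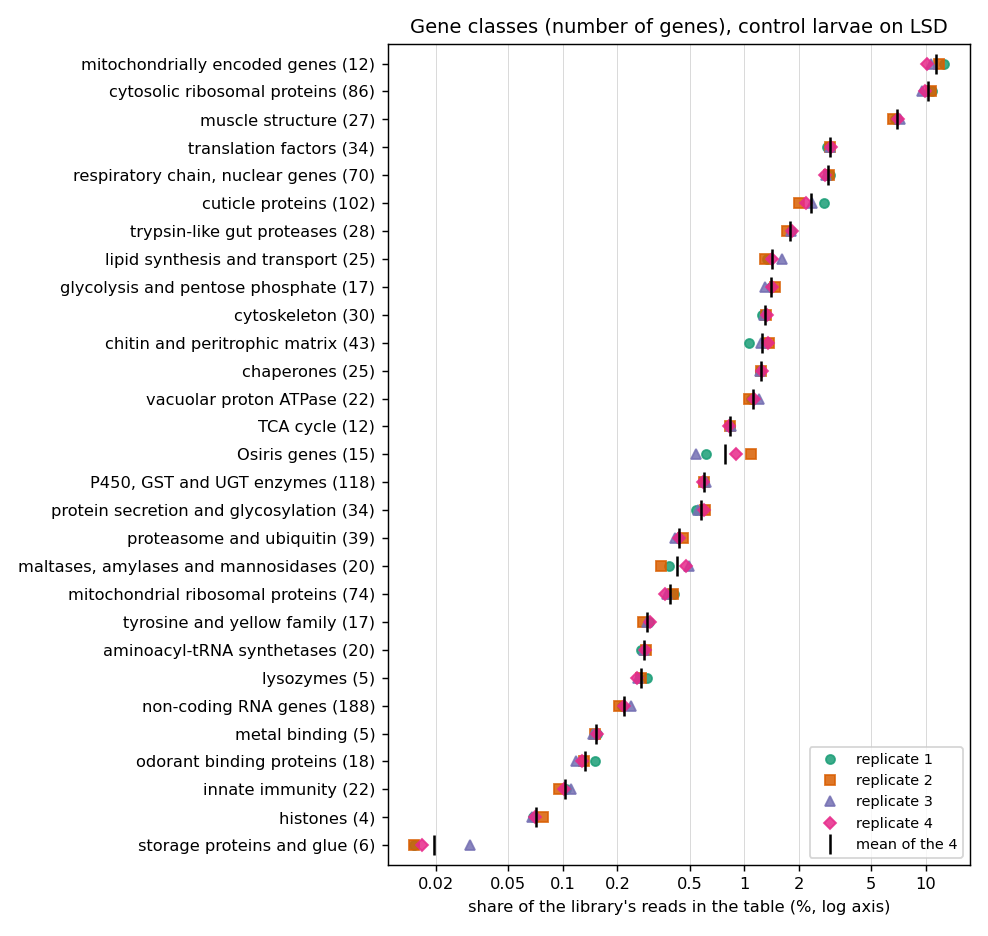
Share of each library's reads in 29 gene classes defined by gene symbol (log axis), with the number of genes in parentheses, a symbol for each of the 4 libraries and a bar at their mean. Mitochondrially encoded genes at 11.4% and cytosolic ribosomal proteins at 10.3% lead, and the symbols lie widest apart for the Osiris genes and for the storage proteins and glue.

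The 29 named classes together covered 51.8% of the reads, with the remainder in named genes outside the classes (27.1%) and in genes known by a CG number (20.9% to 21.3%). Energy metabolism beyond the respiratory chain was spread over several classes of similar size. Enzymes of glycolysis and the pentose phosphate pathway (17 genes) held 1.41%, 1.48%, 1.30% and 1.43%, led by aldolase (Ald) at 3090, 3248, 2782 and 3029, Gapdh2 at 2064, 2189, 1808 and 2008, and enolase (Eno) at 1975, 2015, 1637 and 1925. Gapdh1, a near copy of Gapdh2, was at 1794 ± 169. The TCA cycle and malate enzymes (12 genes) held 0.833 ± 0.011%, a share that varied little, with isocitrate dehydrogenase Idh at 1408 ± 136, citrate synthase (kdn) at 1349 ± 35.2 and aconitase (Acon) at 1270 ± 29.1. The vacuolar proton ATPase (22 genes), which acidifies organelles and energizes epithelia, held 1.12 ± 0.064%, with its proteolipid subunit Vha16-1 at 3102 ± 182 and Vha68-2 at 1422 ± 61.8. Aldehyde dehydrogenase Aldh ranked 21st by share, at 3831, 3451, 3369 and 3097.

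Lipid synthesis and transport (25 genes) held 1.33%, 1.30%, 1.62% and 1.43%. The apolipophorin gene Rfabg (apolpp in the reference, chromosome 4, 1060969 to 1077273, plus strand, BDGP6.54) supplied the largest piece. It encodes the protein of the main hemolymph lipoprotein, made in the fat body, and was at 6472, 5925, 8023 and 6653, highest in replicate 3. The fatty acid synthase FASN1 was at 3155, 2872, 3360 and 3005, and acetyl-CoA carboxylase (ACC), which makes its substrate, at 1038, 1022, 1183 and 1134. Desat1, the acyl-CoA desaturase, was at 899 ± 68.1, AcCoAS, which makes acetyl-CoA from acetate, at 886 ± 62.5, and ATP citrate lyase (ATPCL) at 532 ± 33.2. The other carriers of the fat body list were lower, with Apoltp at 446, 419, 642 and 569, the perilipin Lsd-1 at 247 ± 8.09 and Mtp, which loads lipid onto lipoproteins, at 178 ± 15.6. Rfabg, Apoltp and FASN1 each have over 8 kb of exon. Of 404 such genes with a mean level of at least 10, 198 were highest in replicate 3 and 188 in replicate 4. The part of length in the replicate 3 values was not tested. Of the 18 genes on the fat body list 11 had a row in the table used, and Lsp1alpha, Lsp2, Fbp1, Fbp2, upd2, Adh and Pepck were not analysed here.

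All 23 genes of the midgut list were in the table and above 1 in every library, as were 9560 of all 9982 genes. The summed level of the list was 14795, 13312, 14340 and 14320. Secreted serine proteases dominated it. The 28 trypsin-like proteases of the Jon, Try and related families held 1.81%, 1.72%, 1.81% and 1.84% of reads with an SD of 0.050. Jon65Aiv was at 2906, 2706, 2669 and 2878, Jon25Biii at 2396, 2079, 2503 and 2151, and Jon25Bi at 1932, 1641, 2130 and 1986. Jon99Fii at 1482, Jon25Bii at 1420 and Jon99Ciii at 1158 followed. Per kilobase the Try genes betaTry, alphaTry and deltaTry, at mean levels of 654, 86.8 and 88.2, were below Jon65Aiv at 3086, and the members of both families are close enough in sequence for reads to be divided between neighbours. Lysozymes, enzymes that break bacterial walls (5 genes), held 0.270 ± 0.016%, with LysD at 1220 ± 131, LysS at 810 ± 58.4 and LysB at 601 ± 66.8.

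Enzymes that split sugars and glycans (20 genes) held 0.387%, 0.349%, 0.497% and 0.476%, lowest in replicate 2. The lysosomal alpha-mannosidases LManVI and LManV led, at 1224, 1054, 1657 and 1655 and at 933, 785, 1173 and 1102. The maltases Mal-A6, Mal-A1 and Mal-A8 were at 566 ± 49.7, 392 ± 22.1 and 252 ± 13.2. The amylases were low. Amy-p was at 27.4, 6.19, 36.3 and 17.6 and Amy-d at 3.72, 1.46, 5.90 and 2.86, and both were lowest in replicate 2 and highest in replicate 3. Among regulators, the midgut GATA factor GATAe was at 41.7 ± 2.71, the fat body and blood cell GATA factor srp at 26.9 ± 2.26, and grn, the factor whose knockdown the study examined, at 14.6, 17.8, 20.8 and 19.1. Of the other GATA genes, GATAd was at 20.7 ± 1.27 and pnr at 2.42 ± 0.454. The sugar sensor Mondo was at 173 ± 13.1 and sug, a transcription factor gene that sugar is known to induce, at 40 ± 3.9 on this diet. Per kilobase grn was at 4.42, GATAe at 11.9 and Mondo at 33.5.

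**Figure D3:**
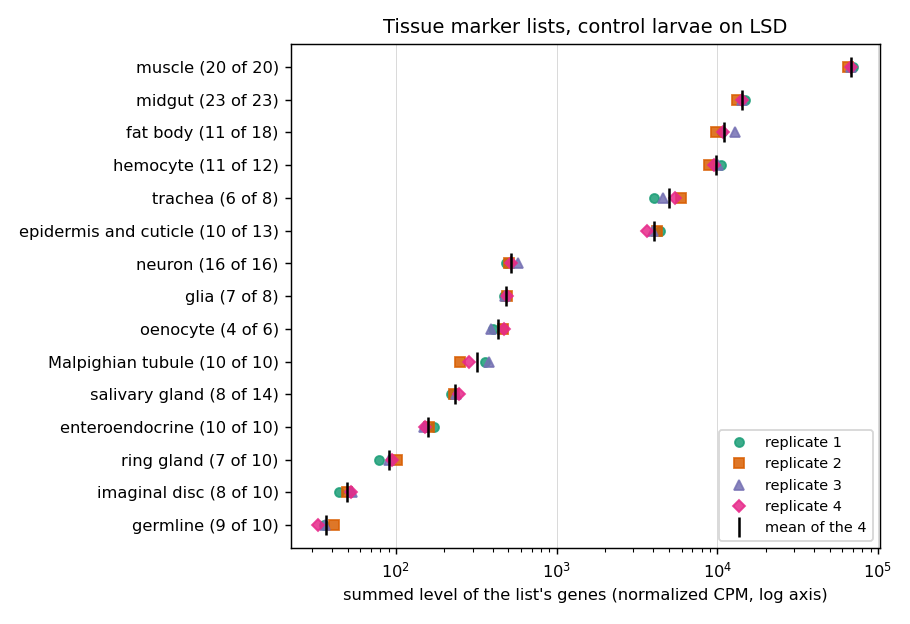
Summed level of each tissue marker list (normalized CPM, log axis), with the number of genes that have a row, of those listed, in parentheses, a symbol for each of the 4 libraries and a bar at their mean. Muscle leads, followed by midgut, fat body and hemocyte lists, and the germline and imaginal disc lists are lowest.

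All 15 tissue lists had members above a level of 1, where 9560 of all 9982 genes were above it in every library. The mean sums of the lists ran from 36.6 for the germline to 67676 for muscle. A sum over markers is not a count of cells. The muscle list came to 6.26 ± 0.237% of reads, midgut to 1.31 ± 0.065%, fat body to 1.03 ± 0.144% and hemocyte to 0.903 ± 0.060%. The hemocyte sum was almost wholly made of the collagen IV chains Cg25C (Col4a1) at 4082, 3567, 4194 and 3827 and vkg at 2146, 1920, 2317 and 2165, which the fat body also makes, and of the neuropeptide-like precursor gene Nplp2 at 3828, 3007, 3081 and 2963. Markers more particular to blood cells were lower, with Hml at 11.9 per kilobase against 635 for Cg25C, and by level Hml was at 140 ± 21.8, Pxn at 91.9 ± 4.89, NimC1 at 7.38 ± 1.09 and eater at 4.68 ± 0.402. The neuronal list held 0.048%, with elav at 29.9 ± 3.07, nSyb at 33.5 ± 1.29 and cpx, the complexin gene, at 95.6 ± 3.58. The glial list held 0.045%, most of it glutamine synthetase Gs2 at 333 ± 12.4, while repo was at 4.34 ± 0.928.

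Levels of markers listed for smaller organs do not show which organ the reads came from. The oenocyte P450 Cyp4g1, which completes hydrocarbon synthesis, was at 284, 311, 275 and 303. Urate oxidase (Uro), a marker of the Malpighian tubules, was at 184, 91.2, 200 and 116. In the ring gland list, the ecdysteroid enzymes phm, sad and nvd were at 5.42 ± 0.676, 3.75 ± 0.729 and 0.957 ± 0.296. The highest member of that list was Npc1a at 69.1 ± 8.66. Of the enteroendocrine hormones CCHa2, which the fat body also makes, was at 82.5 ± 6.25 and the other members had mean levels of 14.5 or less. The germline list had vas at 5.9 ± 1.25 and bam at 0.934 ± 0.177, with ovo highest at 15.2 ± 5.74. The imaginal disc list had ap at 13.1 ± 0.428 and Dll at 2.43 ± 0.608.

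Cuticle and moulting genes made up a smaller part of the reads and varied more between the libraries than most classes. The 102 cuticle protein genes held 2.76%, 2.01%, 2.36% and 2.19%. The 43 genes of chitin metabolism and the peritrophic matrix, the chitin lining of the gut, held 1.06%, 1.37%, 1.24% and 1.35%. The 15 Osiris genes, a clustered insect family of membrane proteins active in cuticle secretion, held 0.612%, 1.09%, 0.539% and 0.900%. For each of these classes the library order differed, with replicate 1 highest for cuticle proteins and replicate 2 highest for Osiris genes.

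**Figure D4:**
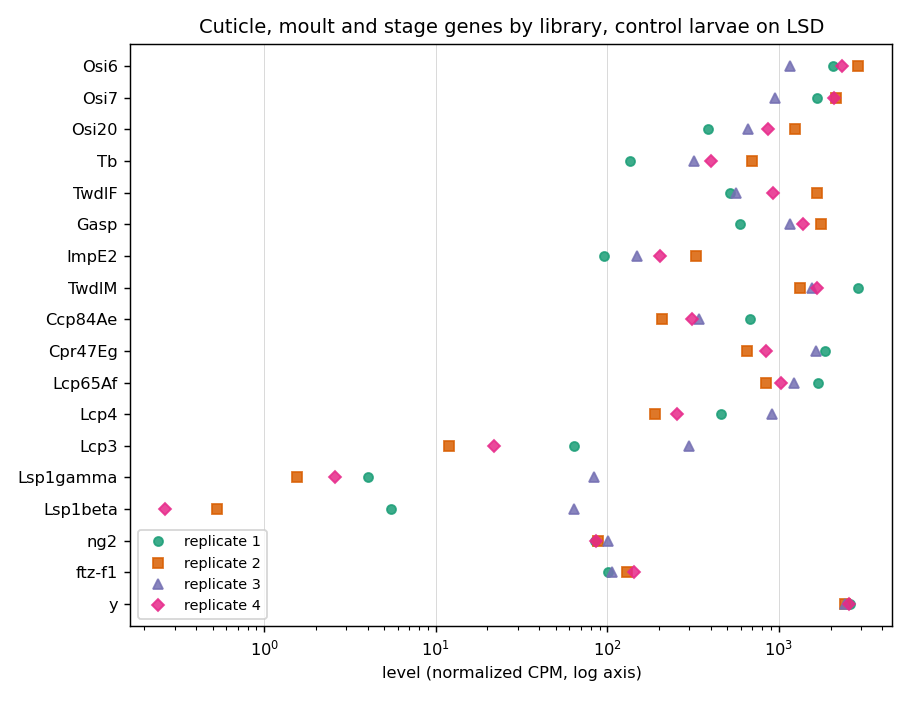
Level of 18 cuticle, moult and stage genes (normalized CPM, log axis) with a symbol for each of the 4 libraries. Replicates 2 and 4 lie to the right for Osi6, Tb, TwdlF and Gasp and to the left for Lcp3, Lcp4 and Cpr47Eg, Lsp1beta and Lsp1gamma stand out in replicate 3, and the y symbols coincide near 2500.

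Cuticle genes, also those of 1 family, ran in opposite directions between the libraries. The Tweedle gene TwdlM, the cuticle gene with most reads, was at 2883, 1333, 1555 and 1675, and the Rebers-Riddiford gene Cpr47Eg at 1861, 656, 1645 and 836. Both were highest in replicate 1 and lowest in replicate 2. The cuticle genes Lcp65Af, at 1692, 845, 1221 and 1022, and Ccp84Ae, at 679, 209, 342 and 313, had the same extremes. Another set was highest in replicate 2 instead. TwdlF was at 519, 1670, 562 and 928, Tb, the Tweedle gene of the Tubby mutant, at 136, 693, 318 and 400, and the chitin-binding Gasp at 592, 1767, 1155 and 1389. The Osiris genes belonged to this set, with Osi6 at 2067, 2871, 1155 and 2318, Osi7 at 1664, 2165, 947 and 2106, and Osi20 at 384, 1239, 662 and 860. Of the 85 cuticle genes with a mean level of at least 10, 53 (62.4%) were highest in replicate 1, against 34.8% of all 7140 such genes and 65.8% of those up to 1 kb, a length that 51 of the 85 had. The part of length in this count was not tested. Of the 85, 46 (54.1%) were lowest in replicate 2, against 24.7% of all genes and 15.4% of those up to 1 kb. Of 11 such Osiris genes 9 were highest in replicate 2, against 22.9% of all genes, and none in replicate 1, against 34.8%.

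Some other genes of the cuticle varied less. The chitin deacetylases verm and serp, which shape tracheal tubes, were at 1536, 2076, 1651 and 1904 and at 1430, 1644, 1295 and 1528. The chitin-binding obst-A was at 911, 1617, 1208 and 1290. The gut mucins Muc96D and Muc55B were at 1106 ± 84.3 and 836 ± 81.8. The pigment gene y (chromosome X, 356509 to 361245, plus strand, BDGP6.54), needed for black cuticle pigment, ranked 36th by share at 2610, 2417, 2432 and 2569, the most reads of the 17 genes of its class, and varied little between libraries. The enzymes that supply its pathway were lower per kilobase, at 24.2 and 18.5 against 1230 for y, and less even, with tyrosine hydroxylase (ple) at 137, 62.3, 105 and 64.5 and dopa decarboxylase (Ddc) at 81.6, 32.8, 49.4 and 43.6. The eye colour genes v and w, often marked in fly stocks, were at 51.8 ± 2.46 and 13.9 ± 1.31.

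Stage markers were checked because the labels and the methods differ. Proteins of the 3rd instar fat body had 2 of 6 listed genes in the table, the storage hexamerins Lsp1beta at 5.49, 0.530, 63.8 and 0.264 and Lsp1gamma at 4.02, 1.55, 83.2 and 2.60. Replicate 3 alone was high, and without it the mean level of Lsp1beta was 2.096 in place of 17.5 and that of Lsp1gamma 2.72 in place of 22.8. In replicates 1, 2 and 4 both were thus at 5.49 or less, although the stage field reads 3rd instar. Another fat body gene, Gnmt (glycine N-methyltransferase), was at 46.7, 30.6, 158 and 38.9 and was also highest in replicate 3. The rest of the fat body list was mixed. Rfabg, Apoltp, FASN1 and srp were highest in replicate 3, and Mtp and Ilp6 in replicate 1. Lsd-1, at 258, 246, 239 and 246, and Tsf1, at 103, 137, 87.5 and 131, were lowest in replicate 3. The salivary glue and late 3rd instar list had 4 of 19 genes in the table. All 4 were new-glue genes, with ng2 at 84.8, 88.4, 101 and 85.9, ng1 at 44.8 ± 0.842, ng3 at 31.2 ± 6.54 and ng4 at 3.18 ± 1.1, and the listed Sgs and Eig71E genes were not analysed here. The adult female list (13 genes) and the adult male and sperm list (12 genes) had no member among the genes analysed here. Embryonic patterning genes had 4 of 10 rows with mean levels of 5.86 or less, and ftz was at 0.225 ± 0.093.

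The larval and the prepupal and pupal cuticle lists both had members in the table, at unlike levels. The larval cuticle list had 13 of 15 genes with a summed level of 6079, 3355, 6272 and 4014, and Lcp3 was its most variable member at 64.1, 11.97, 300 and 21.9, with Lcp4 at 460, 190, 912 and 254. Both were highest in replicate 3 and lowest in replicate 2. Without replicate 3 the mean of Lcp3 was 32.7 in place of 99.5. The prepupal and pupal list had 11 of 12 genes, without Edg84A, and 5 of them, all Ccp84A genes, had a mean above 100. Edg78E was at 20.4 ± 7.26, Edg91 at 9.72 ± 4.85, Acp65Aa at 4.05 ± 2.2 and Pcp at a mean of 2.88. These genes outside the Ccp84A group were below the median mean level of 24.1 per gene, so the list does not show a pupal cuticle set.

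Of 22 ecdysone response genes 21 were in the table, all above 1 in every library, as were 9560 of all 9982 genes. The secreted and membrane proteins ImpE1, at 239, 237, 161 and 320, and ImpE2, at 95.6, 328, 148 and 204, had the most reads of the list. The nuclear receptor ftz-f1, which acts as ecdysone falls, was at 101, 131, 106 and 143, and Hr46, which acts before it, at 19.03, 41.6, 30.8 and 47.6. Both were lower in replicates 1 and 3 than in replicates 2 and 4. The list as a whole had no single order, since 8 of its 21 genes were lower in replicates 1 and 3 than in replicates 2 and 4, 3 were higher and the others were mixed. The share of all genes with either order was not computed, so whether the list differs from other genes in this was not tested. The receptor EcR was at 42.0, 31.4, 39.7 and 44.8 and the early gene Eip75B at 59.5, 41.1, 51.2 and 55.5, both lowest in replicate 2. Eip74EF was at 55.8, 45.1, 45.2 and 64.3, and br at 9.56, 9.15, 15.5 and 11.9. In the juvenile hormone list the epoxide hydrolases Jheh3 and Jheh1 were at 231 ± 8.62 and 109 ± 0.954, and the response gene Kr-h1 was at 2.36 ± 0.323. The RNA-binding temporal genes Imp and Syp were at 126 ± 16.2 and 96.5 ± 17.2 and chinmo at 81.3 ± 9.5. How these levels compare with those of other stages was not tested, since only these larvae were described.

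Defence and stress genes held small shares. P450, GST and UGT enzymes (118 genes) held 0.599 ± 0.013%, led by GstD1 at 834, 855, 842 and 761. Cytosolic and ER chaperones (25 genes with mitochondrial members) held 1.24 ± 0.012%, and the heat shock cognate Hsc70-4 was at 3291, 3038, 3058 and 3076. Hsp83, the Hsp90 chaperone, was at 1183, 1189, 954 and 971. Immune genes (22) held 0.103 ± 0.0063%, with IM33 at 468 ± 57.4 and Tep4 at 283 ± 26.2. The chains of ferritin, which stores iron, were at 774 ± 48.0 for Fer1HCH and 704 ± 35.2 for Fer2LCH. The proteasome and ubiquitin genes (39) held 0.436 ± 0.018%, the secretion and glycosylation machinery (34) 0.576 ± 0.033% with Sec61alpha at 1093 ± 72.3, the cytoskeleton (30) 1.30 ± 0.041% with Act5C at 3783 ± 80.9, the odorant binding proteins (18) 0.132 ± 0.014% and the 4 histone genes with rows 0.071 ± 0.0044%. Non-coding RNA genes (188) held 0.218 ± 0.014%, with CR42862 at 857 ± 91.9.

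Genes known only by a CG number in the table were 4380 of 9982 and held 20.9%, 20.9%, 21.1% and 21.3% of reads. In the reference 864 of them had another name. Of the 100 genes with most reads 4 were CG genes, CG18180 at 2339, 2038, 2018 and 2034, CG11370 at 2333, 1776, 2040 and 2090, CG13731 at 1892, 958, 1866 and 1468, and CG31626 at 1306, 1780, 1168 and 1648. A further 2 of the leading CG genes differed more between libraries. CG15731 was at 464, 1991, 936 and 1100 and CG7406 at 833, 1896, 782 and 1186, both highest in replicate 2 like the Osiris genes.

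The libraries agreed closely for most genes. Among 7140 genes with a mean level of at least 10 the median SD of log2(level + 0.5) was 0.120, and 2721 (38.1%) lay below 0.1. A log2 SD above 0.5 was found for 254 genes (3.56%) and above 1 for 29. The share of such genes was 44.7% among cuticle proteins (38 of 85) and 54.5% among Osiris genes (6 of 11), against 3.56% of all genes. CG genes were 168 of the 254, and 5.74% of the 2925 CG genes tested (41.0% of all 7140) passed. The highest value of these 254 was in replicate 1 and the lowest in replicate 2 for 94 genes (37.0%, against 7.80% of all 7140), the extremes were replicates 3 and 2 for 50 (19.7%, against 10.8% of all) and replicates 2 and 1 for 49 (19.3%, against 5.84% of all). By the dispersion that edgeR fitted to the recovered reads, Lsp1beta and Lsp1gamma came first, followed by CG14565, Lcp3, CG15597, CG14324, CG11852, CG14572, TwdlO, CG11345, CG11585, l(3)mbn, CG14569, CG5756 and CG34273. Of these 15 genes, which were chosen by their spread, 14 were highest in replicate 3 and 12 lowest in replicate 2, against 22.1% and 24.7% of all genes. CG14565 was at 19.4, 1.02, 84.4 and 9.24 and TwdlO at 59.3, 56.2, 312 and 36.4, whereas CG5756 ran the other way at 74.1, 216, 28.6 and 125. The smallest dispersions belonged to Smu1, CG4822, Sgf11, CG14286, CG31664, Haspin, Papst2, CG9004, ADD1 and CG3223, all with mean levels between 12.5 and 15.4.

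A separate difference ran with gene length. Genes over 8 kb of exon (475 genes) held 5.83%, 5.94%, 7.75% and 7.46% of reads, lowest in replicate 1 and highest in replicate 3. Among the 404 of them with a mean level of at least 10, the lowest library was replicate 1 for 231, replicate 2 for 163, replicate 3 for 2 and replicate 4 for 8. Over all 7140 genes the lowest library was replicate 1 for 23.5% and replicate 2 for 24.7%. Genes up to 1 kb went the opposite way and held 20.5%, 19.2%, 18.7% and 18.4%. The median log2 difference of replicate 1 from a gene's mean ran from 0.14 at up to 1 kb to -0.23 at 12 to 20 kb, and that of replicate 4 from -0.10 to 0.22.

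**Figure D5:**
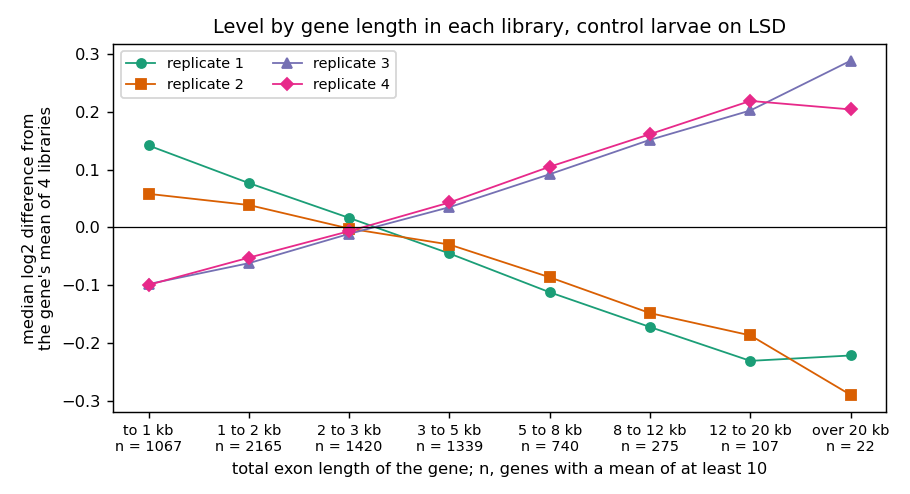
Median log2 difference of each library from the gene's own mean over the 4 libraries, by total exon length, for genes with a mean level of at least 10. Replicates 1 and 2 pass from above 0 for short genes to below 0 for long genes, and replicates 3 and 4 do the reverse.

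Giant muscle and matrix genes were among those that differed with length. The titin relatives bt (chromosome 4) and sls were at 2705, 2759, 5047 and 4728 and at 818, 790, 1254 and 1172. Msp300, a nesprin of the muscle nucleus, was at 818, 725, 1551 and 1388, the spectraplakin shot at 476, 382, 907 and 699 and the extracellular matrix protein dpy at 355, 412, 682 and 739. Each of these 5 genes had its lowest value in replicate 1 or 2 and its highest in replicate 3 or 4. Whether the difference in length came from the larvae or from the libraries was not tested.

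Reads were divided over the chromosomes roughly as genes were, with local exceptions. The arms 2L, 2R, 3L and 3R held 16.3%, 19.1%, 16.6% and 21.3% of reads and 17.4%, 20.4%, 19.8% and 25.2% of genes. Chromosome X held 12.9 ± 0.401% of reads and 16.2% of genes. The mitochondrial genome held 11.4% of reads with 0.120% of genes. Its reads are part of the total, which lowers the share of every nuclear chromosome. Without the 10 highest genes chromosome X held 15.2%. The small chromosome 4, with 81 genes or 0.812% of them, held 2.19%, 2.28%, 2.74% and 2.54% of reads, and its 4 genes Rfabg, ATPsynbeta, bt and RpS3A accounted for 1.70 ± 0.208 points of this. Its other 77 genes held 0.737 ± 0.051%. The dosage compensation RNA roX1, which is made in males, was at 124, 90.4, 129 and 102, and the sex determination gene Sxl at 78.2, 93.1, 91.6 and 99.9. Both had reads in every library. Levels are per gene and do not separate forms of a transcript, so the sexes in each library were not tested.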

How the data were processed

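RNA of whole larvae was made into stranded mRNA libraries, and per the study's methods reads were trimmed with Trimmomatic, aligned with TopHat 2.1.0 to the Release 6 fly genome with FlyBase annotation and counted per gene with HTSeq. The authors deposited a signal per gene and library, their normalized CPM, after dropping genes with low CPM in every group, so that genes without a value were not analysed here. The deposited values were whole multiples of the value of 1 read (100% within 0.01 read), from which reads were recovered as counts, 24038848 to 26477434 per library. The authors' comparison columns, which hold limma fold changes, test statistics and p-values, were not used, and 0 columns of per-sample values were left unmapped.

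The 4 control LSD libraries were assigned from their labels. For each gene the level, the share of the library's recovered reads and the level per kilobase of exon were computed, with mean and SD (n = 4), using Python 3.11.15 and pandas 2.3.3. Gene lengths and chromosomes came from Ensembl release 115 (BDGP6.54), matched for 9973 of 9982 genes, 9844 of them by gene ID. Genes were placed in 1 class each by symbol. The spread was the SD of log2(level + 0.5) for genes with a mean of at least 10. Dispersions were fitted to the recovered counts with edgeR 4.0.16 (R 4.3.3) without groups, a step tested on simulated data. Wilson 95% intervals and the floor of 3 reads cover counting error only. Near-identical genes (among them the Jon, Try, lysozyme, Lcp65A, maltase and actin families) could share reads.

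Genes named are the 20 with the highest mean share, the 15 highest per kilobase, up to 6 leading members of each class, members of the tissue and stage lists, and the 15 largest and 10 smallest dispersions. The genes Gnmt, mt:srRNA, mt:ND2, mt:ND3, RpS10a, RpL37b, RpS5b, Tb, shot, dpy, Msp300, sls, Mondo, sug, GATAd, pnr, Aldh, porin and a few others outside this rule were chosen after their values were seen. Members and lists were chosen with earlier results of these data known. Alternatives were another average, pooled reads, other totals, coding length, other thresholds, pseudocounts and scalings (plain CPM, TMM, and median-of-ratios size factors of DESeq2 1.42.0), and each library left out in turn.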

Additional observations from a re-analysis of the deposited data

Results flagged for a closer look

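In a group of 4 libraries, a value was picked out where its gap to the nearest other library took more of the whole range than Dixon's 95% critical value allows. Of 276 values looked at 16 did so, among them 14 of the levels of 202 genes, and chance picks out about 1 in 20 groups. The values share libraries and are not independent. Some of the 202 genes were named for their large or small dispersion or after their values were seen, so that rate does not hold for them.

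Replicate 3 stood above the others for the share of storage proteins and glue genes (0.0309% against 0.0152% to 0.0167%), for the summed level of the 3rd instar fat body list (147), and for the genes behind both, Lsp1beta (63.8) and Lsp1gamma (83.2). It was also highest for Gnmt (158), TwdlO (312) and the neuronal gene cpx (101), and lowest for pnr (1.74). Replicate 1 had the highest level of Act57B (18528), CG18180 (2339), Hsc70-4 (3291) and Nplp2 (3828) and the lowest of ap (12.4). Replicate 2 was lowest for Prm (1817), and replicate 4 was lowest for Argk (3838) and highest for ng3 (41.0). With plain CPM, an alternative chosen after seeing the data, 7 of the 14 gene levels still passed. Those of Act57B, Argk, CG18180, Nplp2, Prm, cpx and ap did not, and Act57B was then highest in replicate 4 and Argk lowest in replicate 1. Hsc70-4 passed with replicate 2 lowest in place of replicate 1 highest.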

How the results depend on the processing

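All values describe 1 group of 4 libraries. No paired analysis was possible because the results come from no test and no other group was used. Of 371 alternatives for the 45 values other than levels of single genes, 273 moved the value by less than the spread between libraries (counts by less than 1.5 times) and 98 by more. The average used, pooling of reads, and leaving out a library moved none of them past that limit. For the shares this was fixed in advance for the average and for leaving out a library. A median, or a mean without 1 of the 4 libraries, cannot differ from the mean by more than their SD. These settings therefore do not test the shares. Leaving out each library gave 14.8% to 15.5% for the 10 highest genes, 34.2% to 35.1% for the 100 highest, 10.9% to 11.8% for mitochondrially encoded genes, 10.1% to 10.5% for ribosomal proteins, 6.82% to 7.04% for muscle, 2.19% to 2.44% for cuticle, 1.78% to 1.82% for gut proteases, 12.8% to 13.1% for chromosome X and 188 to 311 genes with a log2 SD over 0.5, against 254 with all 4.

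Changing the total or the unit moved the shares by construction. Without the mitochondrially encoded genes the 10 highest genes held 8.01%, the 100 highest 27.7%, muscle 7.81%, ribosomal proteins 11.6% and gut proteases 2.03%. Without the 10 highest genes muscle held 4.39%, ribosomal proteins 12.1%, cuticle 2.75%, gut proteases 2.12%, mitochondrially encoded genes 1.29% and chromosome X 15.2%. Per coding length, which leaves out ribosomal RNA, the 10 highest held 10.8%, the 100 highest 36.3%, muscle 5.15%, ribosomal proteins 22.5%, cuticle 4.28%, gut proteases 2.09% and mitochondrially encoded genes 4.50%. Leaving out alphaTry, betaTry and deltaTry, chosen after seeing the data, gave gut proteases 1.72%. With a mean level of at least 50, 145 genes had a log2 SD over 0.5. The count of 394 genes over 8 kb lowest in replicate 1 or 2 was 400 with plain CPM and 396 with TMM scaling, also chosen after seeing the data. For the levels of 202 single genes, 146 of 1616 alternatives moved the level by more than its SD between libraries. Plain CPM moved 74 of the 202 levels and TMM scaling 72, whereas median-of-ratios scaling moved 0. The median and leaving out a library also moved 0, by construction as for the shares. The authors' levels summed to a different total in each library, highest in replicate 1, so single levels depend on the scaling. At this depth the limits are the 4 libraries, not reads, except for genes near the floor of 3 reads.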
